A study of Mus musculus with 6 samples.

Results

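Accessible chromatin far from genes was compared between mouse neural progenitors that overexpressed Nr6a1 and progenitors that carried a control virus. The distal intervals are those on chromosomes 1 to 19, without chromosomes 6 and 11, whose midpoint lay more than 100 kb and at most 500 kb from the nearest start or finish of any RefSeq protein-coding gene. They numbered 5789 of the 52223 intervals in the table. Of these, 2279 had their midpoint inside the body of a long protein-coding gene and 3510 lay between genes. The intergenic ones fell into 799 gaps between neighbouring genes and the others into 538 host genes, where overlapping hosts of an interval count as 1 host, so many distal intervals share a locus and are not independent of each other.

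Accessibility was measured by ATAC-seq, which uses the Tn5 transposase to tag accessible DNA with sequencing adapters. The Nr6a1OE group, 3 libraries, received a lentivirus for Nr6a1 joined through a 2A peptide to the red fluorescent protein mScarlet3. The mScarlet group, 3 libraries, received a lentivirus for mScarlet3 alone. All cells came from mouse embryonic stem cells treated with 5 µM CHIR99021, a GSK3 inhibitor, on day 2, with 100 nM retinoic acid and 10 nM Smoothened agonist (SAG) from day 3, and with 10 nM SAG from day 5. Virus was added on day 5, cells that fluoresced were sorted on day 9, and 50000 cells entered each library. The sources used here name neither the stem cell line nor its strain nor the promoter of the virus, the labels do not tell how many viral copies a cell took up, and they do not say whether the 3 libraries of a group came from separate cultures. Differences between libraries of a group may therefore be technical.

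Enhancers, the DNA elements that raise transcription of a gene from a distance, are often found in the long stretches between developmental genes and in the long introns of neuronal genes. They open when transcription factors bind and close when that binding is lost or chromatin is compacted, and they usually change more between cell states than promoters do. Nr6a1 (germ cell nuclear factor) belongs to the nuclear receptors with no known ligand, mostly represses transcription, is known for silencing Pou5f1 and for its part in mouse trunk development, and binds direct repeats of the half-site AGGTCA with no spacer. Which gene a distal interval acts on cannot be read from accessibility, so each interval is named here by its flanking or host genes as a position only.

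A genome of the build was not used here, so the sequence of most distal intervals is not shown. A minority, 218 distal intervals, overlapped the window from 250 bases before to 50 bases after a RefSeq transcript start (261 windows of 221 genes, GRCm38.p6, the assembly called mm10). All of these were starts of long non-coding RNAs or internal starts within a host gene, since the ends of protein-coding genes lay over 100 kb away. Shown are the start windows of 4 distal intervals that lost accessibility with Nr6a1 and of the most accessible interval at such a start, which was not called. Capitals mark the 50 bases from the transcript start, and each sequence runs 5′ to 3′ on the strand of its transcript.
The long non-coding RNA between Slc10a2 and Efnb2, chr8:8484679-8484978, minus strand, of which 253 bases overlapped the interval:
Gm31135: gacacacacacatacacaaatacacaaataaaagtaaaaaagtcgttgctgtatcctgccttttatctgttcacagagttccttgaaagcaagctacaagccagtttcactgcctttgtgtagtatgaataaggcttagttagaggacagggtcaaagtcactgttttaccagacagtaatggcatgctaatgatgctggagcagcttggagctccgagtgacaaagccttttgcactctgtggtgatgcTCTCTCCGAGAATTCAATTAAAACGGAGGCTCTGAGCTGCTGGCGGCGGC
The long non-coding RNA between En1 and Insig2, chr1:121087155-121087454, plus strand:
Celrr: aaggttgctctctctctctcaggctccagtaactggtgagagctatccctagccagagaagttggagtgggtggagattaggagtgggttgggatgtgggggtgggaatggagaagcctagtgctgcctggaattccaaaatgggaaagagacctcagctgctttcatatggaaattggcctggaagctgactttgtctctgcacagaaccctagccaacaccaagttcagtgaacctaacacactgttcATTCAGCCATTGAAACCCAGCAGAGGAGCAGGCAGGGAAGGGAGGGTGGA
An internal start of Sox6, chr7:115824661-115824960, minus strand:
Sox6: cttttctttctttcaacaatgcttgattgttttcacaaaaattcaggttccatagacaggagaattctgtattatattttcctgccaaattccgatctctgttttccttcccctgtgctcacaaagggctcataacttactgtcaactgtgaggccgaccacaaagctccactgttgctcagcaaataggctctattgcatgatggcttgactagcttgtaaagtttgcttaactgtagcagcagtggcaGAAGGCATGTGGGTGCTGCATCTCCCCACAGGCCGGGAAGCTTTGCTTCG
The long non-coding RNA between Rps24 and Zmiz1, chr14:24617215-24617514, plus strand:
4931403M11Rik: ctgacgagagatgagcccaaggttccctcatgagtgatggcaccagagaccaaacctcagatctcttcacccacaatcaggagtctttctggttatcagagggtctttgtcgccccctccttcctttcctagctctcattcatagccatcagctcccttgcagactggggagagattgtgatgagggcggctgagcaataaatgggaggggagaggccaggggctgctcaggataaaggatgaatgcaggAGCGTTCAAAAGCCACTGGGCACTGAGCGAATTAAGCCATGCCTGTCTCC
The long non-coding RNA between Cyria and Mycn, chr12:12725231-12725530, minus strand:
Gm40270: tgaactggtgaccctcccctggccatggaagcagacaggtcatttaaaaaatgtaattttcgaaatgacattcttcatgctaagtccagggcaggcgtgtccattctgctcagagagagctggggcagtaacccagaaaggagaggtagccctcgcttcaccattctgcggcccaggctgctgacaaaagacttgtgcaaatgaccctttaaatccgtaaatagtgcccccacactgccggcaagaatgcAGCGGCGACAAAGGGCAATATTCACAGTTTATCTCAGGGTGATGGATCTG
These windows had a GC content of 45.0% (Gm31135 and Sox6), 52.0% (Celrr), 53.7% (4931403M11Rik) and 50.3% (Gm40270), and they held 0 (Celrr) to 8 (Gm40270) CpG dinucleotides. The direct repeat of AGGTCA with no spacer, searched on both strands as an exact match, was in 0 of the 261 windows and in 2 of all 32851 RefSeq start windows (0.00609%). The extended half-site TCAAGGTCA, whose letters overlap that repeat, was in 0 of the 261 and in 139 of all windows (0.423%). These counts concern only 300 bases at each start and only exact matches. Repeats with mismatches were not searched for, and exact ones are so rare that 0 of 261 tells little.

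The table held 6857763 to 8030029 fragments in intervals per library. The first principal component, 30.4% of the variance, separated the groups, and the second, 18.1%, spread the Nr6a1OE libraries. Within groups, pairs of libraries differed by 1.05 to 1.10 times the sampling variance where the mean reached 10 fragments. Nr6a1OE 1 and 3 differed by 0.999 times that variance over intervals of at least 100 fragments but by 1.06 times over those of at least 10, and were kept as separate libraries. All 10 neural progenitor markers checked, such as Sox1, Sox2 and Nes, had an accessible interval within 1 kb of a gene end, with a summed level of 813 to 826 CPM in Nr6a1OE and 806 to 832 CPM in mScarlet libraries, where CPM is fragments per 1e6 fragments in intervals after TMM scaling. Of 6 pluripotency genes, 4 had no such interval (Pou5f1, Nanog, Zfp42 and Dppa4), and the sum was 9.32 to 10.3 CPM in Nr6a1OE and 7.37 to 11.9 CPM in mScarlet. Lists for post-mitotic neurons (6 of 8 genes with an interval, 266 to 285 CPM in Nr6a1OE and 275 to 290 CPM in mScarlet), neural crest (4 of 6, 48.3 to 55.8 and 49.0 to 61.1 CPM), paraxial mesoderm (4 of 6, 151 to 164 and 148 to 161 CPM), endothelium and blood (2 of 6, 73.3 to 86.5 and 80.8 to 85.4 CPM), endoderm (3 of 6, 94.5 to 98.7 and 95.3 to 100.4 CPM) and glia (5 of 6, 149 to 154 and 150 to 153 CPM) gave sums that overlapped between the groups, and no marker interval was called. In bulk samples, fewer cells with an open interval and less opening per cell cannot be told apart.

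Distal intervals were weak and sparse. Their median level was 4.54 CPM, or 33.5 fragments per library, against 7.82 CPM and 57.7 fragments in the other 37989 intervals of the same chromosomes. Only 8.57% of distal intervals reached 20 CPM, against 31.0% of the others, and the median length was 887 bp, against 1041 bp. The nearest accessible neighbour lay a median of 17.5 kb away from a distal interval and 10.4 kb away from the others. Intervals inside genes and between genes were alike in level (median 4.53 and 4.55 CPM) and length (886 and 887.5 bp). Those inside genes lay a median of 159.8 kb from a gene end and those between genes 195.8 kb.

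The question was whether accessibility at a distance from genes differs with Nr6a1. Distal intervals lost accessibility in Nr6a1OE progenitors more often than they gained it. Of the 5701 that passed the filter on low counts, 169 (2.96%) were closed, meaning lower in Nr6a1OE than in mScarlet at a Benjamini-Hochberg adjusted p under 0.05 in edgeR's quasi-likelihood test, and 27 (0.474%) were opened, meaning higher. Over all 51637 intervals tested, 1.26% were closed and 0.469% opened (1.73% in either direction), so the closed share was above that background and the opened share was close to it. The other intervals of the same chromosomes had 1.01% closed and 0.423% opened. Inside genes 71 of 2238 distal intervals were closed (3.17%) and 12 opened (0.536%). Between genes 98 of 3463 were closed (2.83%) and 15 opened (0.433%). The difference between these shares was not tested, because intervals are not replicates of a condition.

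The higher closed share did not depend on which fit was used, although its size did. Leaving out each library in turn gave 1.78% to 2.24% closed among distal intervals, against 0.585% to 0.864% among the others. The count of 169 fell to 105, 110, 106 and 102 without Nr6a1OE 1, Nr6a1OE 3, mScarlet 1 and mScarlet 3. DESeq2 called 31 of the distal intervals closed (0.544%, against 0.188% of all intervals), and edgeR with a 10% variation between cultures added to its dispersion called 53 (0.93%, against 0.339% of all intervals, or 0.37% in either direction). That last fit used edgeR's likelihood-ratio test in place of the quasi-likelihood test. Its dispersion was shared by intervals of like level, so the spread of each single interval did not enter it. The opened count of 27 was 15 without Nr6a1OE 2 and 14 without mScarlet 1, and with the added variation it was 1 (0.0175%, against 0.031% of all). DESeq2 called 0 distal intervals opened (0.00581% of all). At an unadjusted p under 0.05, DESeq2 had 92 distal intervals higher (1.61%, against 1.57% of all intervals). At the same limit edgeR had 295 (5.17%, against 5.73% of all). By chromosome, the closed share of distal intervals ran between 1.02% (chromosome 10) and 5.41% (chromosome 19). It was above that of the other intervals on 16 of 17 chromosomes, the exception being chromosome 10, where it was 1.38% among the others. Chromosomes 6 and 11, which are not part of the comparison, had median log2 fold changes of -0.03 and 0.06.

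The closed share was higher at each step of distance from genes up to 500 kb. It was 0.257% within 1 kb of a gene end, 0.723% at 1 to 10 kb, 1.38% at 10 to 50 kb, 2.16% at 50 to 100 kb, 2.74% at 100 to 200 kb (89 of 3253) and 3.27% at 200 to 500 kb (80 of 2448). Beyond 500 kb it was 2.54% (15 of 590). The opened share was 0.238% within 1 kb, 0.471% at 1 to 10 kb, 0.497% at 10 to 50 kb, 0.557% at 50 to 100 kb and 0.584% at 100 to 200 kb, and then lower, at 0.327%, at 200 to 500 kb and 0.339% beyond. These shares were not tested against each other. The median log2 fold change was -0.01 within 1 kb, 0.02 at 1 to 10 kb, 0.01 at 10 to 50 kb, -0.01 at 50 to 100 kb, -0.03 at 100 to 200 kb, -0.04 at 200 to 500 kb and -0.06 beyond. These medians are small beside the spread of single intervals, whose quartiles among distal intervals were -0.21 and 0.13.

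**Figure D1:**
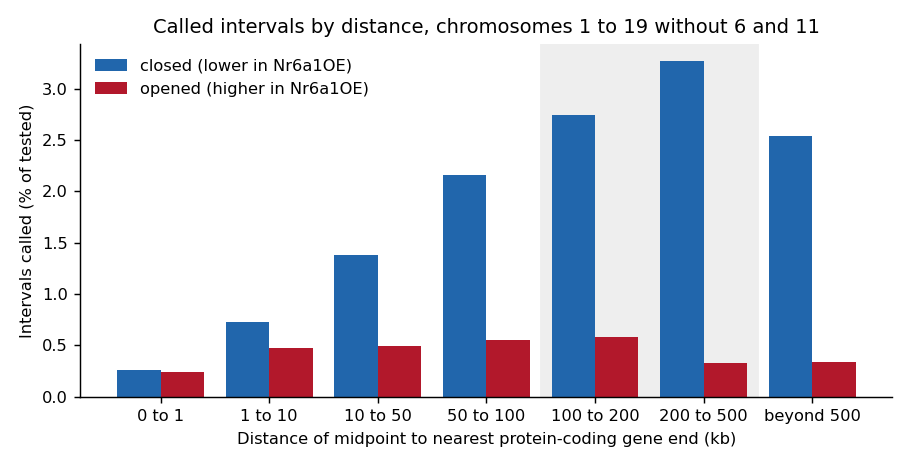
Share of tested intervals called closed or opened in Nr6a1OE against mScarlet (percent, bars) by the distance of the midpoint to the nearest protein-coding gene end (kb), for chromosomes 1 to 19 without 6 and 11. Shading marks the distal range, where closed bars reach 2.74% and 3.27% while opened bars stay at 0.584% and 0.327%.

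Because weak intervals are harder to call, the comparison was repeated at matched accessibility against intervals 10 to 100 kb from a gene end. The distal share was higher at each level. At or under 2 CPM it was 2.63% in distal intervals and 0.953% in the nearer ones, at 2 to 5 CPM 1.72% and 0.826%, and at 5 to 10 CPM 3.79% and 1.9%. At 10 to 20 CPM it was 4.71% and 2.82%, and over 20 CPM 4.84% and 2.92%. The number of closed distal intervals behind these shares was 12, 45, 53, 35 and 24, so each share rests on few calls.

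**Figure D2:**
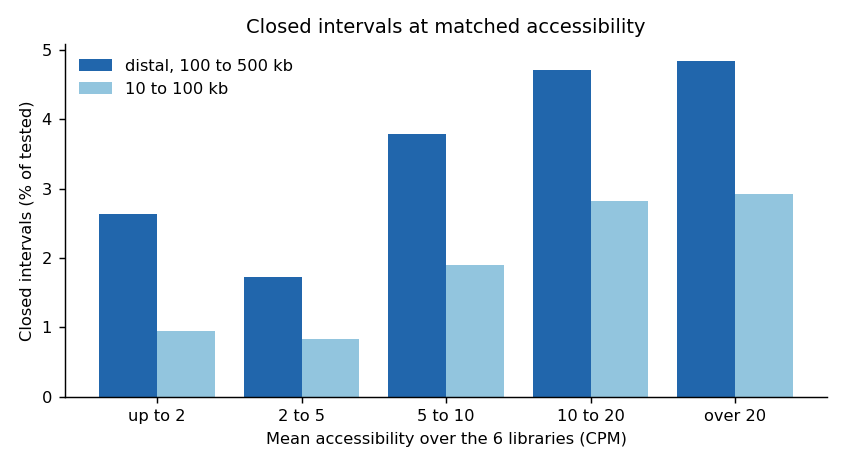
Share of tested intervals called closed (percent, bars) at 5 levels of mean accessibility (CPM), for distal intervals and for those 10 to 100 kb from a gene end on the same chromosomes. The distal bar is the higher at every level, between 1.72% and 4.84%, against 0.826% to 2.92% in the nearer intervals.

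Most distal intervals were not called. Of the 5701 tested, 3158 (55.4%) had a negative log2 fold change, and the median was -0.03, against 0.00 over all intervals. The 5505 that were not called had a median of -0.02. The values of the groups did not overlap in 746 distal intervals that were lower in Nr6a1OE (13.1%, against 8.73% of all intervals) and in 387 that were higher (6.79%, against 7.89% of all). Separate groups were found in 163 of the 169 closed and 26 of the 27 opened intervals. Closed intervals changed by a median of -0.73 on the log2 scale (quartiles -1.09 and -0.53), and 55 of them fell by 1 or more. Opened intervals changed by a median of 0.53 (quartiles 0.39 and 0.78), and 2 rose by 1 or more. Closed intervals had a median level of 7.71 CPM and opened ones 11.9 CPM.

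**Figure D3:**
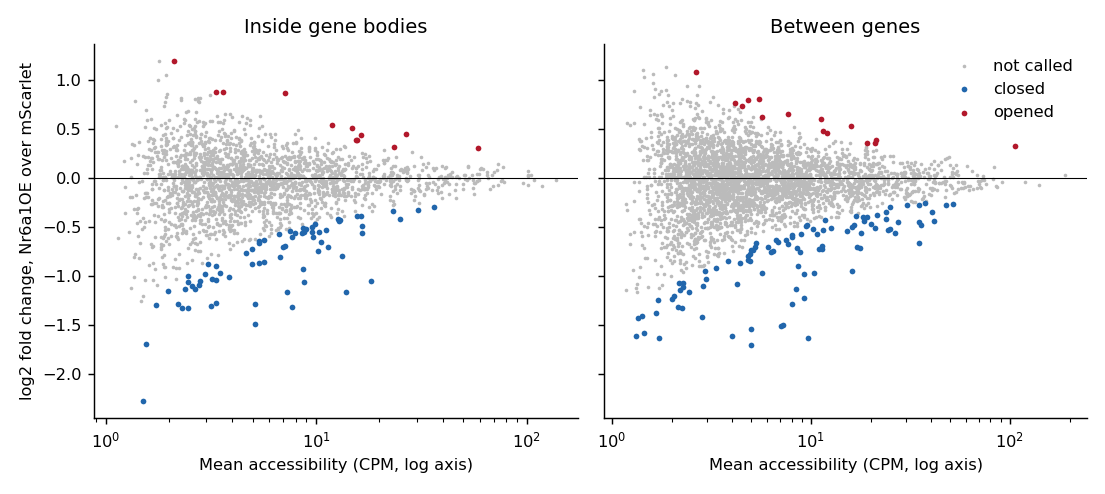
Log2 fold change of Nr6a1OE over mScarlet against mean accessibility (CPM, log axis) of each tested distal interval, in the left panel inside gene bodies and in the right panel between genes; colours mark closed and opened intervals. Called intervals lie mostly below 0, with 71 and 98 closed against 12 and 15 opened, and the least accessible ones carry the largest fold changes. With its wide SE, a weak interval passes the threshold only if its fold change is large.

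Summed over all distal intervals, the change was small. They held 4.73%, 4.88% and 4.75% of the fragments of Nr6a1OE libraries 1, 2 and 3, against 4.86%, 4.93% and 4.94% of those of mScarlet libraries 1, 2 and 3. The groups overlapped, since Nr6a1OE 2 lay above mScarlet 1. The mean was 4.79% ± 0.0794 in Nr6a1OE and 4.91% ± 0.0448 in mScarlet (SD, n = 3 each), a difference of -0.119 percentage points (exact two-sided permutation test over libraries, p = 0.2). Inside genes the share was 1.89%, 1.94% and 1.9% in Nr6a1OE and 1.94%, 1.96% and 1.95% in mScarlet, with a difference of -0.0435 points (exact permutation p = 0.1), and here Nr6a1OE 2 lay below mScarlet 1 by less than the rounding, so that the groups just failed to overlap. Between genes it was 2.85%, 2.94% and 2.86% in Nr6a1OE and 2.92%, 2.97% and 2.98% in mScarlet, a difference of -0.0756 points (exact permutation p = 0.2). With 3 libraries against 3 the smallest p such a test can give is 0.1.

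Between genes, the closed interval with the largest fold change lay between Pabpc4l, a poly(A)-binding protein gene, and Pcdh18, a protocadherin of cell adhesion, 423 kb from the nearer Pabpc4l (chr3:46870713-46871388). Pcdh18 lay 2872240 bases away from this interval. It had 1.99, 2.12 and 2.90 CPM in Nr6a1OE libraries 1 to 3, against 6.57, 6.41 and 9.99 CPM in the mScarlet libraries. Each Nr6a1OE value lay below every mScarlet value, and the log2 fold change was -1.71 ± 0.21 (SE; edgeR, adjusted p = 2.91e-12). Such separation was required of each interval named here and below for the size of its change, so it is no added support.
The strongest statistical evidence was for an interval between Dcdc5 and Mpped2, a metallophosphoesterase gene, 115 kb from Mpped2 (chr2:106577856-106578564). It had 5.40, 3.96 and 4.67 CPM in Nr6a1OE, against 14.5, 15.9 and 13.5 CPM in mScarlet, with no overlap and little spread within a group (log2 fold change -1.64 ± 0.15; edgeR, adjusted p = 3.57e-22). Among the 8 intergenic intervals named for their size, it had the smallest adjusted p.

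A gap beside Mycn, the proto-oncogene that keeps neural progenitors dividing, held a closed interval 151 kb from Cyria (chr12:12531310-12532432). It had 2.13, 2.83 and 1.01 CPM in Nr6a1OE and 7.53, 4.95 and 5.5 CPM in mScarlet, without overlap (log2 fold change -1.61 ± 0.24; edgeR, adjusted p = 2.1e-08). In the same gap the interval at the start of Gm40270, whose sequence is shown above, had 121, 115 and 115 CPM in Nr6a1OE and 124, 114 and 122 CPM in mScarlet. Its groups overlapped and it was not called, so within 1 gap a weak interval fell by more than 1 log2 unit while a strong one differed by -0.04 ± 0.04.

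Emcn encodes endomucin, a sialomucin of endothelium, and Ppp3ca a catalytic subunit of calcineurin. Between them an interval at chr3:137188962-137189428 had 3.55, 2.12 and 2.02 CPM in Nr6a1OE, against 6.98, 7.43 and 7.87 CPM in mScarlet (log2 fold change -1.54 ± 0.21; edgeR, adjusted p = 4.78e-10). Erbb4 encodes a receptor for neuregulins, signals between neurons, glia and muscle. An interval 237 kb from it, towards Cps1 (chr1:67794949-67795392), had 2.70, 4.66 and 3.66 CPM in Nr6a1OE, against 9.86, 10.2 and 11.4 CPM in mScarlet (-1.51 ± 0.18; edgeR, adjusted p = 3.45e-14). Nrp1 encodes neuropilin-1, a receptor for semaphorins and vascular endothelial growth factor, and Pard3 a polarity protein of the progenitors' apical side. Between them (chr8:127890453-127891385) the values were 4.26, 2.97 and 4.04 CPM in Nr6a1OE and 8.76, 12.7 and 10.7 CPM in mScarlet (-1.50 ± 0.17; edgeR, adjusted p = 2.83e-14). Nrp1 lay 467672 bases and Pard3 278633 bases away from this last interval. No Nr6a1OE value reached an mScarlet value in these 3 intervals.

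Rfx3 encodes a transcription factor of cilia formation. Between it and Pum3 (chr19:27546503-27547436) an interval had 0.426, 2.40 and 1.77 CPM in Nr6a1OE, against 4.24, 3.64 and 4.50 CPM in mScarlet (-1.42 ± 0.29; edgeR, adjusted p = 2.22e-04). Nr6a1OE 1 was far below its group, and without it the adjusted p in edgeR was 0.0573. Mef2c encodes a transcription factor of muscle and neuron maturation. An interval 213 kb from it, towards Tmem161b and inside the long non-coding RNA gene Gm52045 (chr13:83879875-83881098), had 7.24, 3.53 and 3.41 CPM in Nr6a1OE, against 12.2, 10.1 and 11.9 CPM in mScarlet (-1.28 ± 0.16; edgeR, adjusted p = 6.9e-12). DESeq2 did not call these 2 intervals (adjusted p = 0.153 and 0.095) and called the other 6.

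**Figure D4:**
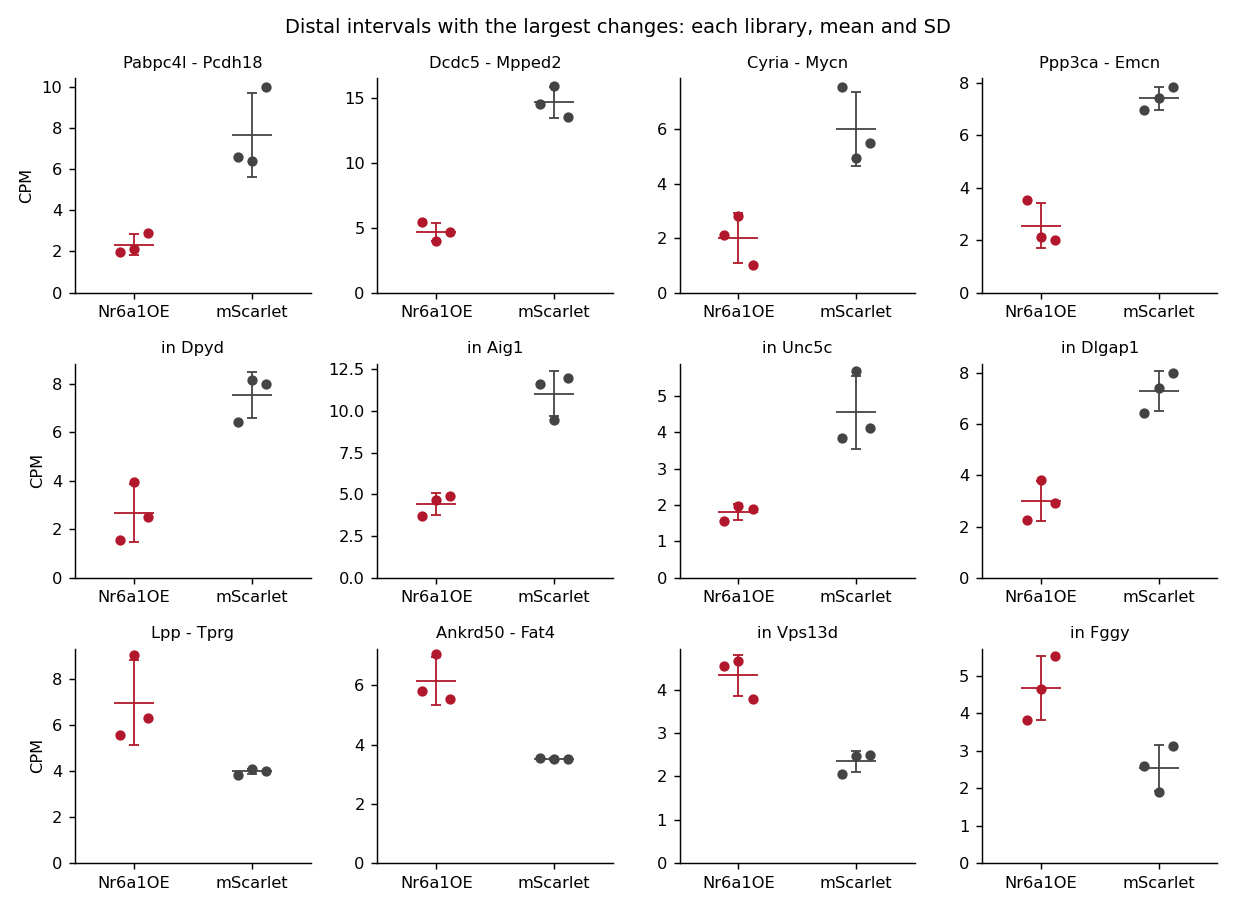
Accessibility (CPM) of each library in 12 called distal intervals with large changes, 4 closed between genes (top), 4 closed inside genes (middle) and 4 opened (bottom); points are libraries, lines the mean and bars the SD of 3. Only intervals whose groups do not overlap were eligible, so in every panel the 3 Nr6a1OE points lie apart from the 3 mScarlet points. They lie below them in the upper 2 rows and above them in the bottom row.

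Inside genes, all 6 closed intervals named by size were called whichever library was left out. Dpyd encodes the enzyme that begins pyrimidine breakdown. An interval 325 kb from its end (chr3:119107900-119108378) had 1.56, 3.96 and 2.52 CPM in Nr6a1OE, against 6.43, 8.16 and 7.99 CPM in mScarlet (log2 fold change -1.49 ± 0.21; edgeR, adjusted p = 1.34e-09). In Aig1, a membrane hydrolase of fatty acid esters, an interval 107 kb from the gene's end (chr10:13753426-13754517) had 3.69, 4.66 and 4.92 CPM in Nr6a1OE, against 11.6, 9.47 and 12 CPM in mScarlet (-1.32 ± 0.17; edgeR, adjusted p = 4.8e-12). The urea transporter gene Slc14a2 is best known from the kidney. An interval in it (chr18:78454519-78456234) had 8.24, 8.34 and 9.08 CPM in Nr6a1OE, against 17.1, 20.3 and 20.4 CPM in mScarlet (-1.17 ± 0.12; edgeR, adjusted p = 4.13e-17). It had the highest accessibility of the 14 closed intervals named by size.

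In Unc5c, a receptor for the guidance cue netrin, an interval at chr3:141691799-141692480 had 1.56, 1.98 and 1.89 CPM in Nr6a1OE, against 3.83, 5.68 and 4.12 CPM in mScarlet (-1.31 ± 0.27; edgeR, adjusted p = 2.87e-04). In Dlgap1, a scaffold of the postsynaptic density, one at chr17:70247608-70248991 had 2.27, 3.81 and 2.90 CPM in Nr6a1OE, against 6.43, 7.43 and 7.99 CPM in mScarlet (-1.28 ± 0.20; edgeR, adjusted p = 2.7e-07). Ldb2 encodes a cofactor of LIM-homeodomain transcription factors. Its interval at chr5:44619576-44620160 had 1.56, 1.70 and 2.52 CPM in Nr6a1OE, against 4.79, 4.66 and 4.75 CPM in mScarlet (-1.27 ± 0.26; edgeR, adjusted p = 2.47e-04). No groups overlapped in these genes. DESeq2 did not call the Unc5c and Ldb2 intervals (adjusted p = 0.106 and 0.0976).

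Gains were fewer than losses. Of the 5 gains called whichever library was left out, the one with the largest fold change was in Arl15, a gene for a small GTPase-like protein, where an interval 176 kb from the gene's end (chr13:113980844-113982026) had 10.7, 8.76 and 8.20 CPM in Nr6a1OE, against 4.65, 5.10 and 5.25 CPM in mScarlet (log2 fold change 0.87 ± 0.17; edgeR, adjusted p = 9.89e-05). The groups did not overlap, and the call was kept with the added variation (adjusted p = 0.0116 in edgeR's likelihood-ratio test) but not in DESeq2 (adjusted p = 0.0851). A neighbouring interval of Arl15 (chr13:114051285-114053270) also opened, with 28.1, 31.4 and 33.4 CPM in Nr6a1OE, against 23.4, 21.6 and 23.1 CPM in mScarlet (0.45 ± 0.09; edgeR, adjusted p = 7.83e-05). This made Arl15 the only host gene with 2 opened distal intervals. Of its 6 tested distal intervals, 4 were negative, and the median log2 fold change of the 6 was -0.02.

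The other gains named by size rested on particular libraries. Between Lpp, a LIM protein of focal adhesions, and Tprg (chr16:25104326-25105269) the values were 5.54, 9.04 and 6.31 CPM in Nr6a1OE, against 3.83, 4.08 and 4.00 CPM in mScarlet (0.80 ± 0.19; edgeR, adjusted p = 0.0045), and without Nr6a1OE 2, the highest, the adjusted p in edgeR was 0.216. Between Ankrd50 and Fat4, an atypical cadherin of tissue polarity (chr3:38714095-38714794), they were 5.82, 7.06 and 5.55 CPM in Nr6a1OE and 3.56, 3.5 and 3.5 CPM in mScarlet (0.80 ± 0.21; edgeR, adjusted p = 0.0122). The call was lost without Nr6a1OE 2, mScarlet 1 or mScarlet 3 (adjusted p in edgeR 0.122, 0.0563 and 0.0586). In Ust, an enzyme that sulfates chondroitin and dermatan sulfate chains (chr10:8363166-8364718), they were 12.8, 14.3 and 15.4 CPM in Nr6a1OE and 8.21, 9.76 and 11.1 CPM in mScarlet (0.54 ± 0.13; edgeR, adjusted p = 0.00402), lost without Nr6a1OE 3 or mScarlet 1 (adjusted p in edgeR 0.0785 and 0.121). The groups did not overlap in these 3 intervals, but DESeq2 called none of the 8 gains named by size.

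Weaker still were gains between Lrrc3b and Oxsm (chr14:16135071-16136397, 0.76 ± 0.22; edgeR, adjusted p = 0.0398) and between Gm5148 and Ankrd50 (chr3:37882425-37883104, 0.73 ± 0.21; edgeR, adjusted p = 0.0388). The others were in Vps13d, a lipid transfer protein gene (chr4:145066679-145067422, 0.87 ± 0.25; edgeR, adjusted p = 0.0363), and in Fggy, a carbohydrate kinase gene (chr4:95772159-95773063, 0.87 ± 0.24; edgeR, adjusted p = 0.0229). Their levels were 3.79 to 6.43 CPM in Nr6a1OE and 1.89 to 3.62 CPM in mScarlet. The first kept its call only without Nr6a1OE 1, and the adjusted p in edgeR was 0.256, 0.089, 0.133, 0.0632 and 0.172 without Nr6a1OE 2, Nr6a1OE 3 and mScarlet 1, 2 and 3. The gain beside Gm5148 kept its call only without Nr6a1OE 2, with 0.079 and 0.258 without Nr6a1OE 1 and 3 and 0.139, 0.119 and 0.0845 without mScarlet 1, 2 and 3. Vps13d was called only without Nr6a1OE 3, with 0.13 and 0.141 without Nr6a1OE 1 and 2 and 0.172, 0.0704 and 0.0913 without mScarlet 1, 2 and 3. Fggy lost its call without Nr6a1OE 2, Nr6a1OE 3, mScarlet 1 and mScarlet 2 (0.0625, 0.228, 0.0877 and 0.164).

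Of the 27 opened distal intervals, 5 were called without each library in turn, and 55 of the 169 closed ones were (20 inside genes and 35 between genes). Besides the 2 in Arl15, these 5 gains were between Irx3 and Irx5, in Nr6a1 itself and near the start of chromosome 9. The interval in Nr6a1 (chr2:38822994-38825616), 101 kb from the gene's end, had 66.5, 61.6 and 65.9 CPM in Nr6a1OE, against 49.7, 50.7 and 56.7 CPM in mScarlet (0.30 ± 0.06; edgeR, adjusted p = 1.22e-04). Fragments of the viral Nr6a1 copy could align to the gene's exons, whose positions were not used here, so they cannot be told apart from those of the gene itself. The interval on chromosome 9 (chr9:3023465-3025886) had 115, 134 and 103 CPM in Nr6a1OE, against 89.0, 101 and 90.7 CPM in mScarlet (0.33 ± 0.04; edgeR, adjusted p = 5.45e-10). It lies at the start of the assembled chromosome, where satellite repeats are known to collect fragments in this build, and no protein-coding gene stands before it. There was no overlap in either, and the closest pair was Nr6a1OE 3 and mScarlet 2 on chromosome 9.

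The genes beside distal intervals were described with 4 lists chosen with earlier results of these data known. A distal interval belonged to a list if its host or a flanking gene was on it. No limit was set on the distance to that flanking gene, which could be more than 500 kb. Among intervals beside neural tube patterning and progenitor transcription factors, 17 of 515 tested were closed (3.30%) and 3 opened (0.583%), with a median log2 fold change of -0.04. Beside axon guidance genes 15 of 229 were closed (6.55%) and 1 opened (0.437%), with a median of -0.09. Beside synapse and neuronal adhesion genes 18 of 419 were closed (4.3%) and 2 opened (0.477%), with a median of -0.03. Beside cadherins and protocadherins 1 of 112 was closed (0.893%) and 0 opened, with a median of 0.00. Over all distal intervals these values were 2.96%, 0.474% and -0.03. Called without each library in turn were 6, 7, 5 and 1 of the closed intervals of the patterning, guidance, synapse and cadherin lists, and 1 of the opened ones. DESeq2 called 4, 4, 3 and 1 of the closed ones and 0 of the opened ones. The intervals described next are those called without each library in turn, and no groups overlapped in them.

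Patterning factors set the identity of progenitors along the axes of the neural tube. Nkx6-1 marks ventral progenitors. An interval 135 kb from it, towards Gpat3 (chr5:101523581-101524845), had 28, 28.4 and 32.2 CPM in Nr6a1OE, against 38.5, 38.3 and 44.1 CPM in mScarlet (-0.45 ± 0.08; edgeR, adjusted p = 2.06e-06). Sox11 is a factor of neuronal differentiation with closed distal intervals in the gaps on both sides. They lay 223254 bases from it towards Dcdc2c and 537736 bases from it towards Cmpk2, where Cmpk2 was nearer, at 316696 bases. Towards Dcdc2c (chr12:27565160-27566784) the values were 31.3, 31.9 and 26.9 CPM in Nr6a1OE and 40.7, 41.8 and 42.2 CPM in mScarlet (-0.48 ± 0.08; edgeR, adjusted p = 1.97e-07). Towards Cmpk2 (chr12:26795993-26797072) they were 13.4, 11.6 and 12 CPM in Nr6a1OE and 18.5, 17.2 and 18.1 CPM in mScarlet (-0.55 ± 0.12; edgeR, adjusted p = 5.8e-04). Pax3 marks dorsal progenitors and neural crest. Between it and Epha4 (chr1:77629088-77630578) an interval had 7.81, 8.76 and 9.34 CPM in Nr6a1OE, against 11.5, 15.9 and 14.7 CPM in mScarlet (-0.69 ± 0.13; edgeR, adjusted p = 7.83e-05). Pax3 lay 471434 bases and Epha4 114726 bases away from this interval.

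The POU factor Pou3f3 acts in neural progenitors and the kidney. Between it and Tmem182 (chr1:41152663-41154672), 297 kb from Tmem182, an interval had 22.3, 19.9 and 19.4 CPM in Nr6a1OE, against 32.2, 27.5 and 28.5 CPM in mScarlet (-0.52 ± 0.09; edgeR, adjusted p = 4.58e-06). Pou3f3 lay 1542100 bases away from this interval. Iroquois factors divide the neural tube into domains, and a few intervals beside both Iroquois clusters were called. Between Adamts16 and Irx1, where 2 of 15 distal intervals were closed and 0 opened, the values at chr13:71157666-71159353 were 22.6, 19.9 and 22 CPM in Nr6a1OE, against 31.2, 30.5 and 33.5 CPM in mScarlet (-0.56 ± 0.09; edgeR, adjusted p = 8.49e-08). Irx1 lay 799722 bases away from this interval. Between Irx3 and Irx5 (chr8:91966901-91968056) they were 19.5, 19.9 and 17.0 CPM in Nr6a1OE, against 13.6, 13.6 and 11.9 CPM in mScarlet (0.53 ± 0.11; edgeR, adjusted p = 5.76e-04). The gap between Irx3 and Irx5 also held a strong interval at the start of Gm36843, with 59.1, 57.5 and 63.5 CPM in Nr6a1OE and 63.4, 64.0 and 68.8 CPM in mScarlet, which overlapped and was not called.

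Guidance receptors steer growing axons. Robo2, a receptor for Slit repellents, had 2 closed intervals over 400 kb from its ends. At chr16:74321911-74323057 the values were 8.10, 6.5 and 3.53 CPM in Nr6a1OE, against 9.45, 13.6 and 11.1 CPM in mScarlet (-0.93 ± 0.15; edgeR, adjusted p = 1.2e-06). At chr16:74338665-74339606 they were 8.95, 9.18 and 10.9 CPM in Nr6a1OE, against 16.2, 16.8 and 17.7 CPM in mScarlet (-0.80 ± 0.12; edgeR, adjusted p = 8.61e-08). The spread within Nr6a1OE was wide at the interval nearer the gene's end and narrow at the other, and DESeq2 did not call the one with the wide spread (adjusted p = 0.791). Efnb2 encodes ephrin-B2, a ligand held on the membrane. An interval 132 kb from it, at the start of Gm31135 (chr8:8484670-8484931), had 5.68, 7.21 and 8.07 CPM in Nr6a1OE, against 12.6, 14.9 and 13.9 CPM in mScarlet (-0.97 ± 0.14; edgeR, adjusted p = 6.98e-09). Ephb1 encodes an ephrin-B receptor, and between it and Ppp2r3a (chr9:101471661-101473166) the values were 37.5, 34.0 and 33.8 CPM in Nr6a1OE and 49.1, 49.8 and 44.3 CPM in mScarlet (-0.44 ± 0.07; edgeR, adjusted p = 2.04e-07). Ephb1 lay 449714 bases and Ppp2r3a 220582 bases away from this last interval. The list's other such intervals were those of Unc5c, beside Nrp1 and beside Epha4, given above.

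Teneurins are transmembrane proteins that join pre- and postsynaptic cells. An interval 180 kb from Tenm4, towards Gm15501 (chr7:95991078-95992348), had 5.97, 4.24 and 5.55 CPM in Nr6a1OE, against 12.2, 9.91 and 12.5 CPM in mScarlet (-1.14 ± 0.16; edgeR, adjusted p = 7.76e-10). In Tenm3 (chr8:49184246-49185210) the values were 3.84, 3.96 and 4.29 CPM in Nr6a1OE, against 7.39, 7.29 and 7.37 CPM in mScarlet (-0.86 ± 0.19; edgeR, adjusted p = 0.00112). Tenm3 held 28 other tested distal intervals, none of them called. In Sorcs1, a sorting receptor of neurons (chr19:50244424-50245649), they were 7.95, 9.89 and 6.94 CPM in Nr6a1OE, against 14.1, 12.4 and 12.4 CPM in mScarlet (-0.66 ± 0.14; edgeR, adjusted p = 4.93e-04). The intervals of Dlgap1 and beside Erbb4 were the other members of the synapse list called without each library in turn. That of the cadherin list was the one between Pabpc4l and Pcdh18, 2872240 bases from Pcdh18.

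Closed distal intervals stood in 87 of 799 gaps and 62 of 538 hosts. Of the 169, 22 (13.0%) had another closed distal interval within 50 kb. This share was not set against that of other intervals, so whether closed intervals cluster was not tested. In 19 loci, 10 gaps and 9 hosts, 2 or more were closed. The counts of negative intervals and the medians given for such loci include the closed intervals that they were picked for. The gap between Mef2c and Tmem161b had the most, with 3 closed of 8, 7 of 8 negative and a median of -0.47. Beside the interval given above, one at chr13:83884762-83885783 had 3.27, 2.40 and 2.52 CPM in Nr6a1OE, against 6.02, 6.41 and 5.00 CPM in mScarlet (-1.08 ± 0.22; edgeR, adjusted p = 3.83e-04). The strongest of the gap, at chr13:84058927-84060740, had 44.3, 48.0 and 48.7 CPM in Nr6a1OE, against 57.6, 53.3 and 58.6 CPM in mScarlet (-0.27 ± 0.06; edgeR, adjusted p = 0.00325). Neither showed any overlap between groups, but the strongest lost its call without Nr6a1OE 1 or mScarlet 3 (adjusted p in edgeR 0.079 and 0.0623).

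Between N4bp1 and Cbln1, a synaptic organiser of the cerebellum, 9 of 10 were negative, with a median of -0.39, and 2 were closed. The stronger of these (chr8:87230533-87232542) had 9.66, 10.6 and 12.4 CPM in Nr6a1OE, against 20.4, 21.6 and 21.6 CPM in mScarlet (-0.95 ± 0.11; edgeR, adjusted p = 1.79e-13). In Epha3, an ephrin-A receptor, 2 of the 4 distal intervals were closed, and the other 2 were also negative. The median of -0.87 includes the closed ones. The closed one stronger in fold (chr16:63747898-63748197, -1.33 ± 0.31; edgeR, adjusted p = 0.00251) lost its call without Nr6a1OE 3 or mScarlet 3 (0.0823 and 0.154). The other closed one (chr16:63752889-63753445, -0.70 ± 0.17; edgeR, adjusted p = 0.00458) lost it without Nr6a1OE 3, mScarlet 1 or mScarlet 3 (0.0673, 0.0656 and 0.0744). A locus could also hold both directions: Kirrel3, Sox6 and the gap between 4931429L15Rik and Gm4791 each had closed and opened distal intervals. In Sox6, a factor of glial and neuronal specification, the interval at the internal start shown above had 28.7, 27.1 and 25.6 CPM in Nr6a1OE, against 35.0, 34.1 and 32.7 CPM in mScarlet (-0.32 ± 0.08; edgeR, adjusted p = 0.0083). The other (chr7:115903267-115904475) had 18.9, 20.2 and 17.4 CPM in Nr6a1OE, against 13.3, 14.3 and 14.0 CPM in mScarlet (0.44 ± 0.11; edgeR, adjusted p = 0.00913). Neither pair of groups overlapped, but the closed call was lost without Nr6a1OE 3 or mScarlet 1 (adjusted p in edgeR 0.112 and 0.0797) and the opened one without Nr6a1OE 2 or mScarlet 1 (0.0909 and 0.0785).

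**Figure D5:**
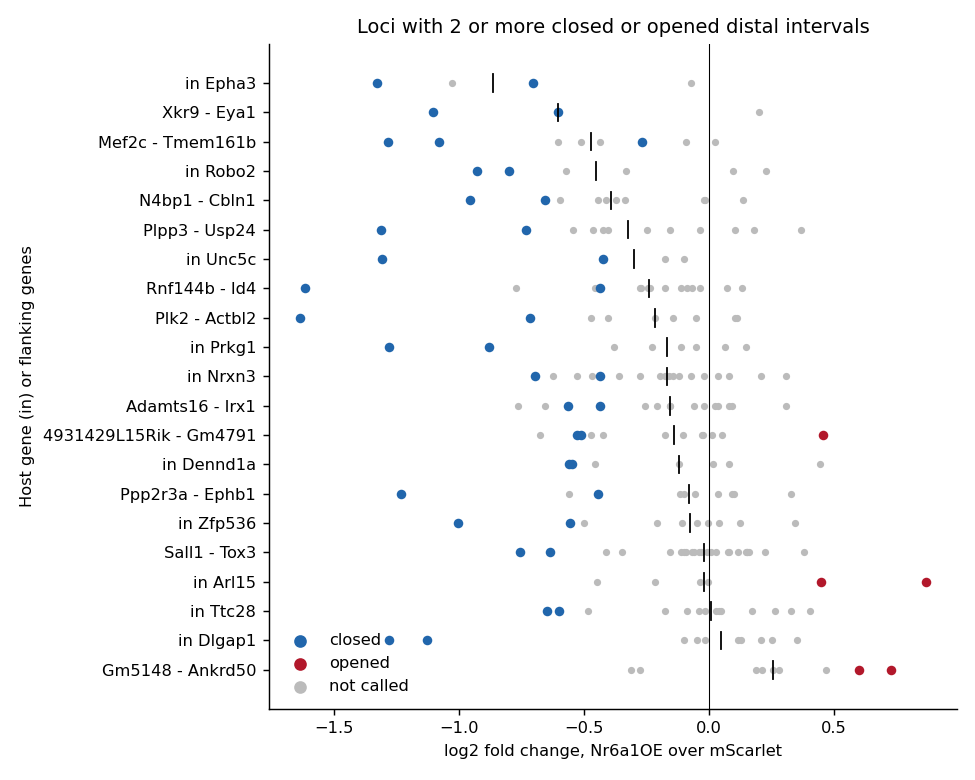
Log2 fold change of Nr6a1OE over mScarlet of every tested distal interval in each gap or host gene with 2 or more closed or 2 or more opened distal intervals; coloured points are called, black marks are medians. In most rows the uncalled points reach both sides of 0, while in Epha3 and Unc5c all 4 lie below 0 and between Mef2c and Tmem161b 7 of 8 do. Rows were chosen for their called points, which enter these counts and the medians.

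The 10 gaps and host genes with the most distal intervals held 295 tested ones, of which 7 (2.37%) were closed and 1 (0.339%) opened, shares close to those of all distal intervals (2.96% and 0.474%). The gap between Mn1 and Cryba4 held 40, with 1 closed and a median of 0.09. That between Rps24 and Zmiz1 held 31 (1 closed), that between Thap1 and Zfp703 29 (1 opened), that between Sall1 and Tox3 24 (2 closed) and that between Sox2 and Atp11b 23 (0 called). Sox2 keeps neural progenitors undivided in fate, and the median of the intervals beside it was 0.05. Among host genes, Auts2, a gene of neuronal development, held 36 distal intervals, of which 25 were negative, with a median of -0.12 and 0 called. Lrmda held 29 (0 called), Tenm3 and Zfhx3 29 each (1 closed each) and Wwox 26 (1 closed).

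The most accessible distal intervals were not called. The 3 strongest between genes lay between Esp15 and Esp38 (chr17:39846690-39847420), between 9530057J20Rik and Gm15319 (chr8:20121877-20123060) and at Gm40270 in the Mycn gap. That between Esp15 and Esp38 overlaps the ribosomal RNA repeat Rn18s-rs5 and had 188, 194 and 197 CPM in Nr6a1OE and 192, 175 and 197 CPM in mScarlet, and repeats of this kind also collect fragments from copies elsewhere. Inside genes the strongest were in Stox2 (chr8:47287375-47289835; 140, 134 and 136 CPM in Nr6a1OE and 138, 143 and 135 CPM in mScarlet), in Kcnn2 and in the overlapping genes Schip1 and Iqschfp. None of these 6 was called, and their log2 fold changes ran between -0.09 and 0.03.

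Distal intervals at a RefSeq transcript start were stronger than the rest, with a median of 9.05 CPM against 4.46 CPM. Of the 218, 5 were closed (2.29%) and 0 opened, against 164 of 5483 (2.99%) and 27 (0.492%) elsewhere. The 64 at internal starts of protein-coding genes had a median of 17.5 CPM and 1 closed, that of Sox6. The 139 at starts of intergenic long non-coding RNAs had a median of 7.57 CPM and 4 closed. Celrr, transcribed between En1 and Insig2 (chr1:121086750-121087910), had 11.9, 13.0 and 13.8 CPM in Nr6a1OE, against 19, 22.1 and 22 CPM in mScarlet (-0.70 ± 0.11; edgeR, adjusted p = 1.09e-07). En1 is a homeobox gene of the midbrain and of spinal interneurons. At 4931403M11Rik (chr14:24616901-24618624) the values were 41.5, 45.2 and 42.4 CPM in Nr6a1OE, against 49.4, 56.2 and 51.2 CPM in mScarlet (-0.28 ± 0.07; edgeR, adjusted p = 0.00304). At Gm35035, between Dusp6 and Csl (chr10:99460818-99461922), they were 10.8, 14.3 and 14.8 CPM in Nr6a1OE, against 17.1, 18.5 and 20.9 CPM in mScarlet (-0.50 ± 0.11). Gm31135, beside Efnb2, was the fourth. The call at 4931403M11Rik was lost without mScarlet 2 (adjusted p in edgeR 0.0765) and that at Gm35035 without Nr6a1OE 1 or mScarlet 3 (0.11 and 0.0796). At all of them every Nr6a1OE value was below every mScarlet value. Intergenic distal intervals in the body of a non-coding or other RefSeq gene (811) had 3.0% closed, and those in no RefSeq gene (2699) had 2.78%.

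Of the microRNA hairpins in the RefSeq table, 4 overlapped a distal interval, and none of the 4 intervals was called. Shown are the mature products of Mir137, which acts in neuronal differentiation, with the seed, bases 2 to 8, in capitals; the 2 seeds differ.
mmu-miR-137-3p: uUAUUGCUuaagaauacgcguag
mmu-miR-137-5p: aCGGGUAUucuuggguggauaau
Its interval between Snx7 and Dpyd (chr3:118433406-118435000) had 16.3, 12.7 and 18.4 CPM in Nr6a1OE, against 15.1, 16.6 and 12.4 CPM in mScarlet, with overlapping groups (0.13 ± 0.11; edgeR, adjusted p = 0.706). The intervals of Mir199a-2 in Dnm3, Mir344-2 and Mir3072 had log2 fold changes of -0.04, -0.19 and -0.40. The groups did not overlap at Mir3072, between Rtl1 and Dio3, with 5.11, 6.36 and 6.69 CPM in Nr6a1OE and 8.49, 7.14 and 8.37 CPM in mScarlet, but it did not pass the threshold (edgeR, adjusted p = 0.246).

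At the distance limits themselves, the intervals just above 100 kb lay at 100.012 kb from Stmn4 (4.79 CPM in Nr6a1OE and 2.97 CPM in mScarlet) and 100.02 kb from Nrcam (5.61 and 4.67 CPM). Just below it, at 99.99 kb from Gm38457, the means were 7.36 CPM in Nr6a1OE and 9.01 CPM in mScarlet. Just inside 500 kb, at 499.577 kb from Irx1, they were 15.9 CPM in Nr6a1OE and 14.9 CPM in mScarlet, and at 499.445 kb from Gm40892 1.65 and 2.60 CPM. Just outside, at 501.171 kb from Gm36448 and 501.505 kb from St6gal2, they were 1.03 CPM in Nr6a1OE and 0.687 CPM in mScarlet, and 3.55 and 3.72 CPM. None of these 7 was called, and the one beside Gm36448 was not tested.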

How the data were processed

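Chromatin accessibility was measured by ATAC-seq in 6 libraries, 3 Nr6a1OE and 3 mScarlet. The deposited table holds raw fragment counts for 52223 intervals. Per the file headers, the authors counted read pairs with featureCounts 2.0.1, counted a fragment in each interval that it touched and required an overlap of 0.2 of the fragment, so neighbouring intervals can share fragments. The submitters' processing notes name mm10. The aligner, peak caller, duplicate removal, Tn5 shift and merging of intervals are not stated there, so fragments in repeats depend on an unknown filter.

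Distances were measured from interval midpoints to the 21896 protein-coding genes of RefSeq GRCm38.p6. All intervals were fitted with edgeR 4.0.16 in R 4.3.3 (filterByExpr, which removed 586 and left 51637, TMM, glmQLFit, glmQLFTest), with Benjamini-Hochberg adjustment over all tested and a threshold of 0.05. The steps were run on simulated counts drawn with edgeR's own estimated dispersion, with changes planted only in intervals above a set level. This does not tell how well changes in weaker intervals are found, or how far that dispersion holds. CPM is counts scaled to a common TMM-adjusted library total, and ± after a fold change is its SE. Depth was 6857763 to 8030029 fragments per library. A distal interval's median of 33.5 fragments limits precision. The SE covers counting error and a spread between these libraries that edgeR shares over intervals, and it can miss the spread of a single interval. The Robo2 interval with the wide spread (chr16:74321911-74323057) had an SE of 0.15. That was below the 0.19 of the Tenm3 interval (chr8:49184246-49185210), which was weaker but varied little within groups. The edgeR common coefficient of variation was 1.47%. Replicates may be technical, and the p-values then measure only that spread. Fragment shares were compared with an exact permutation test over libraries. Alternatives were DESeq2 1.42.0, its size factors, other filters, thresholds and distance limits, a replicate block, 10% added variation, 2 libraries summed and each library left out. The fit with added variation used edgeR's likelihood-ratio test.

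Named are called intervals with groups that do not overlap and a mean of at least 20 fragments (the 8 closed between genes, 6 closed inside, 4 opened between and 4 opened inside with the largest fold change), the 3 most accessible of each class, loci with 2 or more closed or the most distal intervals, and called intervals of the gene lists. Of the called intervals of the lists and of the loci with 2 or more closed, the text gives a choice made after the values were seen; the list examples are those called in all 6 leave-one-out fits. The opened intervals kept in all 6 fits, intervals at transcript starts and microRNAs were also chosen after the values were seen. The members and lists were chosen with earlier results of these data known.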

Additional observations from a re-analysis of the deposited data

How the results depend on the processing

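The counts of closed distal intervals (169 in all, 71 inside genes, 98 between genes) and opened ones (27, 12 and 15) stayed within 1.5 times under DESeq2 size factors, no filter, a mean of at least 20 fragments, scaling without chromosomes 6 and 11, distances from interval edges, summing Nr6a1OE 1 and 3, and, chosen after seeing the data, leaving out intervals at transcript starts (164 closed, 27 opened). DESeq2 called 31, 9 and 22 closed and 0, 0 and 0 opened. At an unadjusted p under 0.05 it had 325 lower (5.7%, against 2.61% of all intervals) and 92 higher (1.61%, against 1.57%). An adjusted p under 0.01 in edgeR gave 91, 36 and 55 closed and 12, 6 and 6 opened. The share of all intervals at this threshold is not given here, so these counts have no background beside them. With 10% added variation, 53, 24 and 29 were closed and 1, 1 and 0 opened. A lower limit of 50 kb gave 270 closed (130 inside genes) and 53, 21 and 32 opened, and one of 200 kb gave 80, 30 and 50 closed and 8, 4 and 4 opened, as fewer or more intervals then count. With the limit of 200 kb, 3.27% of 2448 tested were closed and 0.327% opened. Measuring distance to all RefSeq genes left 47, 30 and 17 closed and 11 opened (2 between genes). The number tested under that definition is not given here, so a smaller set and a lower closed share cannot be told apart. Leaving out each library gave 102 to 129 closed in all, 37 to 51 inside genes and 62 to 78 between genes, and 14 to 23, 4 to 11 and 6 to 13 opened, with fewer samples in each fit. The cause of the gap between edgeR and DESeq2 was not tested.

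The replicate numbers did not pair the libraries: deviations of same-numbered libraries correlated at 0.0044, -0.0022 and -0.0063. With the number as a replicate block, 155 of the 169 closed and 26 of the 27 opened intervals kept their calls. The share of all intervals called in that fit is not given here. An exact sign-flip test of the fragment share gave p = 0.25, the smallest it can give. The difference in share stayed negative without each library, at -0.165 to -0.0915 percentage points for all distal intervals, -0.0585 to -0.0335 inside genes and -0.106 to -0.0579 between genes. Of 79 named called intervals, DESeq2 kept 24, the added variation 31, the block 77 and DESeq2 size factors 78. No named interval changed direction. Weak intervals, with a median of 33.5 fragments per library, limit what can be called.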

Other observations

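Outside the rule for named intervals, and chosen after their values were seen, the largest loss of any distal interval was in Klhl1, a gene for an actin-binding protein of neurons (chr14:96217948-96218384). It had 0.568, 0.424 and 0.505 CPM in Nr6a1OE, against 2.05, 3.21 and 2.25 CPM in mScarlet, without overlap (log2 fold change -2.28 ± 0.44; edgeR, adjusted p = 7.75e-05), and was called without each library in turn. It had under 20 fragments per library on average, so the fold change rests on few fragments.

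Also chosen after the values were seen, an interval between Shh, the ligand of the pathway that SAG activates, and Rnf32 (chr5:29032536-29033719) was called opened. It had 6.11, 8.19 and 6.43 CPM in Nr6a1OE, against 5.07, 4.37 and 4.00 CPM in mScarlet (0.63 ± 0.19; edgeR, adjusted p = 0.0489), and the call was lost in each of the 6 fits that left out a library. Beside Dcc, a netrin receptor, towards Mex3c (chr18:73293965-73295138), an interval opened with 9.66, 10.3 and 8.20 CPM in Nr6a1OE, against 5.89, 5.68 and 6.24 CPM in mScarlet (0.65 ± 0.16; edgeR, adjusted p = 0.00749). Inside Dcc another (chr18:71657641-71658553) closed, with 20.3, 23.5 and 17.8 CPM in Nr6a1OE, against 26.6, 25.4 and 25.5 CPM in mScarlet (-0.34 ± 0.09; edgeR, adjusted p = 0.0241). The groups did not overlap in these 3 intervals. Without Nr6a1OE 2 the adjusted p of the opened one beside Dcc was 0.0772 in edgeR. The closed one inside Dcc was called only without Nr6a1OE 2, with adjusted p in edgeR of 0.0884 and 0.336 without Nr6a1OE 1 and 3 and of 0.139, 0.0516 and 0.0708 without mScarlet 1, 2 and 3.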
